A study of Homo sapiens with 6 samples.

Results

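The tumour necrosis factor (TNF) superfamily was followed in Daoy cells that overexpressed either wild-type ZBTB7B (WT) or a mutant ZBTB7B whose zinc-finger domain carries R363L (ZFmut). Its members were taken by name: protein-coding genes of GENCODE release 29 whose symbol starts with TNFSF or TNFRSF and a digit, together with TNF, LTA, LTB, FAS, FASLG, CD40, CD27, CD70, LTBR and NGFR. This rule found 43 genes among the 60554 gene identifiers of the count files, 17 of them ligands and 26 receptors. Daoy is an established human line derived from a medulloblastoma, a tumour of the cerebellum, and lentivirus carried the transgenes into the cells the day after seeding (15 infectious units per cell, incubation for 72 hr), within 4 days of culture in medium with 10% serum. RNA was sequenced from 3 WT and 3 ZFmut libraries. Both groups carry an overexpressed ZBTB7B on top of the cells' own gene, and no library without a transgene was analysed here. Whether the 3 libraries of a group stem from 3 cultures is not in the labels. The p-values therefore reflect only how far these libraries differed, which may be technical.

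The ligands of this superfamily are mostly trimeric proteins anchored in the membrane, and several act after being cut free by proteases. Their receptors fall into classes with different wiring. Receptors with a death domain, such as FAS and the TRAIL receptors, can assemble caspase-activating complexes through FADD, whereas the other signalling receptors bind TRAF adaptors and feed the NF-kB and MAP kinase pathways, and decoy receptors bind ligand without passing on a signal. ZBTB7B (ThPOK) binds DNA through zinc fingers and is known for committing thymocytes to the CD4 lineage.

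Libraries held 22236214 to 102730428 reads assigned to genes, with ZFmut replicate 3 the deepest. ZBTB7B itself stood at 899, 863 and 951 CPM (reads scaled to the library's TMM size) in WT replicates 1 to 3, against 555, 547 and 627 CPM in the ZFmut libraries in the same order. Its fitted ratio was 1.57, so the zinc-finger substitution and the amount of ZBTB7B transcript cannot be told apart in any difference given here. The count adds the transgene and the cells' own gene and does not separate them. Of the 9 markers of the cerebellar granule lineage and Sonic hedgehog medulloblastoma, 6 averaged at least 1 CPM in each group, whereas ATOH1, BARHL1 and NEUROD1, which define the granule lineage, stayed below that. The neural progenitor markers NES and SOX2 were lower with WT, at log2 differences of -0.45 and -0.84, and the other 2 progenitor markers did not pass, SOX9 at 0.02 (edgeR adjusted p = 0.822) and VIM at -0.00086 (0.992). The 11 leukocyte markers summed to 2.14 to 2.87 CPM in WT libraries and to 3.42 to 4.24 CPM in ZFmut libraries, with the B cell marker MS4A1 at 0 reads in every library. The 3 endothelial markers summed to 1.17 to 1.52 and 2.45 to 2.69 CPM. The endothelial marker PECAM1 was lower with WT at -2.10 (edgeR adjusted p = 4.09e-05), as were the leukocyte markers ITGAM at -1.50 (0.00418) and CD4 at -0.77 (0.0254). CD4 lost its call in 3 of the alternative settings. CD14, NKG7 and VWF were tested and did not pass. The part of all these markers in the results below was not tested, and in bulk RNA fewer cells of a type cannot be told apart from less RNA per cell.

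The 250 bases before the RefSeq start (GRCh38.p14) are shown for 5 members on which the results turn. RefSeq and GENCODE place some starts differently. By the GENCODE positions given below, only the TNF window lies wholly before its gene, those of TNFSF10 and TNFSF9 run past the start, and those of TNFRSF14 and TNFRSF9 lie inside the gene. A RefSeq window was matched by symbol for 28 of the 43 members, and these windows were searched on both strands. The letters TATAAA, the core of the TATA box that positions RNA polymerase II, occurred in 11.3% of the 27305 promoters of the same table. They were found in 3 of the 7 windows of members that were higher with WT, in 0 of the 6 of members that were lower and in 1 of the 9 of members that did not pass the test. The 3 higher members are TNF (chr6:31575315-31575564, plus strand), TNFSF10 (chr3:172523431-172523680, minus strand) and TNFSF9 (chr19:6530776-6531025, plus strand), the ligand genes with the largest increases. They are printed here for that reason, chosen after their values were seen, with the match in capitals.
TNF: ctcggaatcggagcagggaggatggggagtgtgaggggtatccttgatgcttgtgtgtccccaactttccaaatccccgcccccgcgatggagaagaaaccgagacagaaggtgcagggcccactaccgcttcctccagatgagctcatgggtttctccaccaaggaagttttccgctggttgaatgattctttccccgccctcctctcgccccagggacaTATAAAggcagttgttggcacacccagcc
TNFSF10: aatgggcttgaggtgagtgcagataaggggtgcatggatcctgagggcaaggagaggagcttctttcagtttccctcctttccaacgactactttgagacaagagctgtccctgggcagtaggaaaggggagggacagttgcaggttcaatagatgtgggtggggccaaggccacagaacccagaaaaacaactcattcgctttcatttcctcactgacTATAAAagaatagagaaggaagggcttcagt
TNFSF9: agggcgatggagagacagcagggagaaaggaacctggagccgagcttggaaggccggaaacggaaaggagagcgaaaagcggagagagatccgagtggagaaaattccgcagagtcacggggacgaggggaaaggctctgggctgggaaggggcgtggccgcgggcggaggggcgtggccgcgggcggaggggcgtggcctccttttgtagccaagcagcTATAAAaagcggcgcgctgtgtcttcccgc

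In these windows the match begins 29 bases before the start of TNF, 31 before that of TNFSF10 and 30 before that of TNFSF9. The single match among members that did not pass, in TNFRSF18, begins 250 bases before the start. The NF-kB consensus motif occurred in 9.57% of all promoters and in 2 of the 7 windows of higher members, TNFSF13 and TNFRSF14. It also occurred in 1 of the 6 windows of lower members, TNFRSF9, in that of LTB, which did not pass, and in that of TNFSF14, which was not tested. The receptor genes TNFRSF14 (chr1:2556121-2556370, plus strand) and TNFRSF9 (chr1:7940840-7941089, minus strand) both hold it and moved in opposite directions, which is why both are shown, with the run covered by overlapping matches in capitals.
TNFRSF14: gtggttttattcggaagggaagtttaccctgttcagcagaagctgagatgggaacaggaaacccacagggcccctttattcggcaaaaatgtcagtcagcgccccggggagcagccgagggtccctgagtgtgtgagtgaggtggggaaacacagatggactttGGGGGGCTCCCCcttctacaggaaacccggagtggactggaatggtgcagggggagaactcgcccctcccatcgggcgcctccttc
TNFRSF9: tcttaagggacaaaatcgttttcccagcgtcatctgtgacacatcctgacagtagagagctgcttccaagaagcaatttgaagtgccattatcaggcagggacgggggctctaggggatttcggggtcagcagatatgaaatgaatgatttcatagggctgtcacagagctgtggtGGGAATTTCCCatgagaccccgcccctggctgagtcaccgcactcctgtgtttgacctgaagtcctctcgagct

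Matches to the Sp1 box GGGCGG were found in 41.6% of all promoters, in 4 of the 7 windows of higher members and in 5 of the 6 of lower members. They also lay in 3 of the 9 windows of members that did not pass and in 4 of the 6 of members not tested. Median GC content was 67% in windows of lower members, 58.8% for higher members, 50% for members that did not pass and 57.6% for all promoters. Its part in these matches was not tested. The core of the interferon-stimulated response element was found in 3.05% of all promoters and in the windows of TNFSF10, TNFSF9 and TNFRSF1B, besides that of FASLG, which was not tested. TGANTCA, the AP-1 site, lay in 6.74% of all promoters and in the windows of FAS and TNFRSF9 among called members, and the cyclic AMP response element TGACGTCA, in 1.74% of all promoters, in none of the 28 member windows. No match to the TATA, NF-kB or Sp1 motif overlapped a match to another of these 3 in a member's window. These are matches of letters in a short window and show neither binding nor its absence.

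Of the 43 members, 32 had enough reads to be tested across all 18683 tested genes by edgeR's quasi-likelihood test. With WT, 10 members were higher (31.2% of those tested, against 18.4% of all tested genes) and 9 were lower (28.1%, against 17.2%) at a Benjamini-Hochberg adjusted p under 0.05. The median log2 difference, WT minus ZFmut, was 0.04 over the tested members and 0.004 over all tested genes. By class, among the 12 tested ligands 5 were higher and 0 lower, among 7 death-domain receptors 3 were higher and 2 lower, and among 11 signalling receptors without a death domain 2 were higher and 6 lower. For the ligands, 1 lower gene had an unadjusted edgeR p under 0.05, and DESeq2 and limma-voom each called 0 lower. The plot of differences by role places the ligands TNF, TNFSF10 and TNFSF9 at its right end and the receptors TNFRSF25 and TNFRSF8 with the decoy TNFRSF10C at its left. The difference between the classes was not tested.

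**Figure D1:**
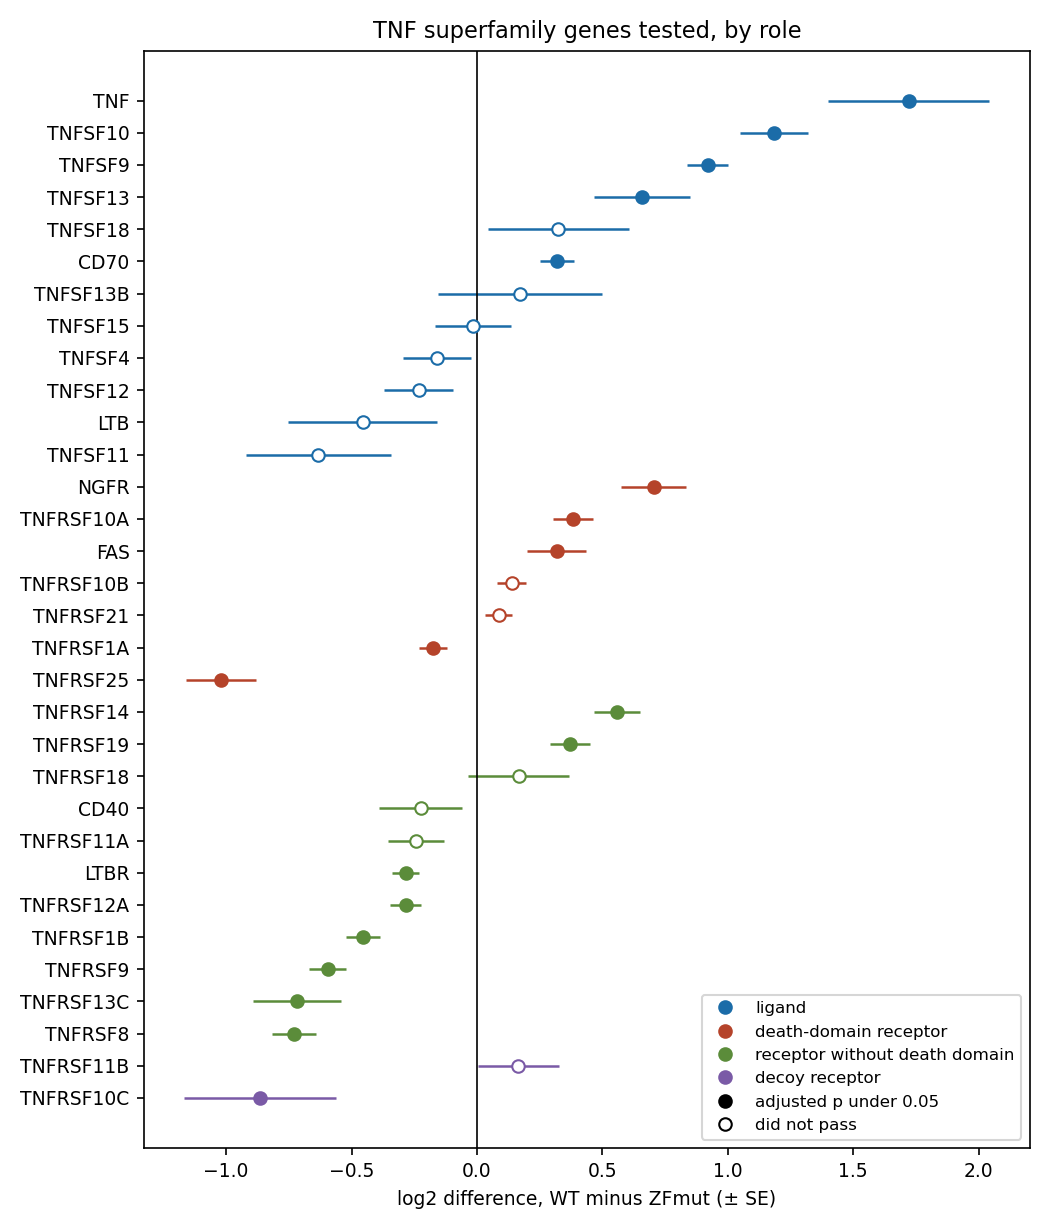
Log2 difference between WT and ZFmut (x axis, bars show the edgeR SE) for the 32 tested members, coloured by role; filled points passed an adjusted p of 0.05. All 5 filled ligands lie above 0, and 6 of the 8 filled receptors without a death domain lie below 0.

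The abundance of the members, given per kilobase of exon so that genes can be compared, ran from 103.7 CPM per kilobase to 0 (mean of the 6 libraries). TNFRSF12A, the receptor of TWEAK also known as Fn14, led the family at 93.5 ± 3.90 with WT and 114 ± 8.0 with ZFmut (SD, n = 3 here and throughout). TNFRSF1A, the main TNF receptor, and TNFRSF21, the death receptor DR6, followed at means over the 6 libraries of 34.2 and 32.2, and their ranges overlapped. The next ranks were CD70 at 21.4, the 4-1BB ligand TNFSF9 at 14.2 and the lymphotoxin beta receptor LTBR at 12.3, each overlapping its neighbour. CD70, which binds CD27, and TNFSF9 were thus the most abundant ligand transcripts, above TNFSF10 at 1.85. TNF was at 0.238. In the plot of levels per length, receptors hold 6 of the first 8 ranks, and below rank 11 the ranges of nearly all neighbours overlap.

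**Figure D2:**
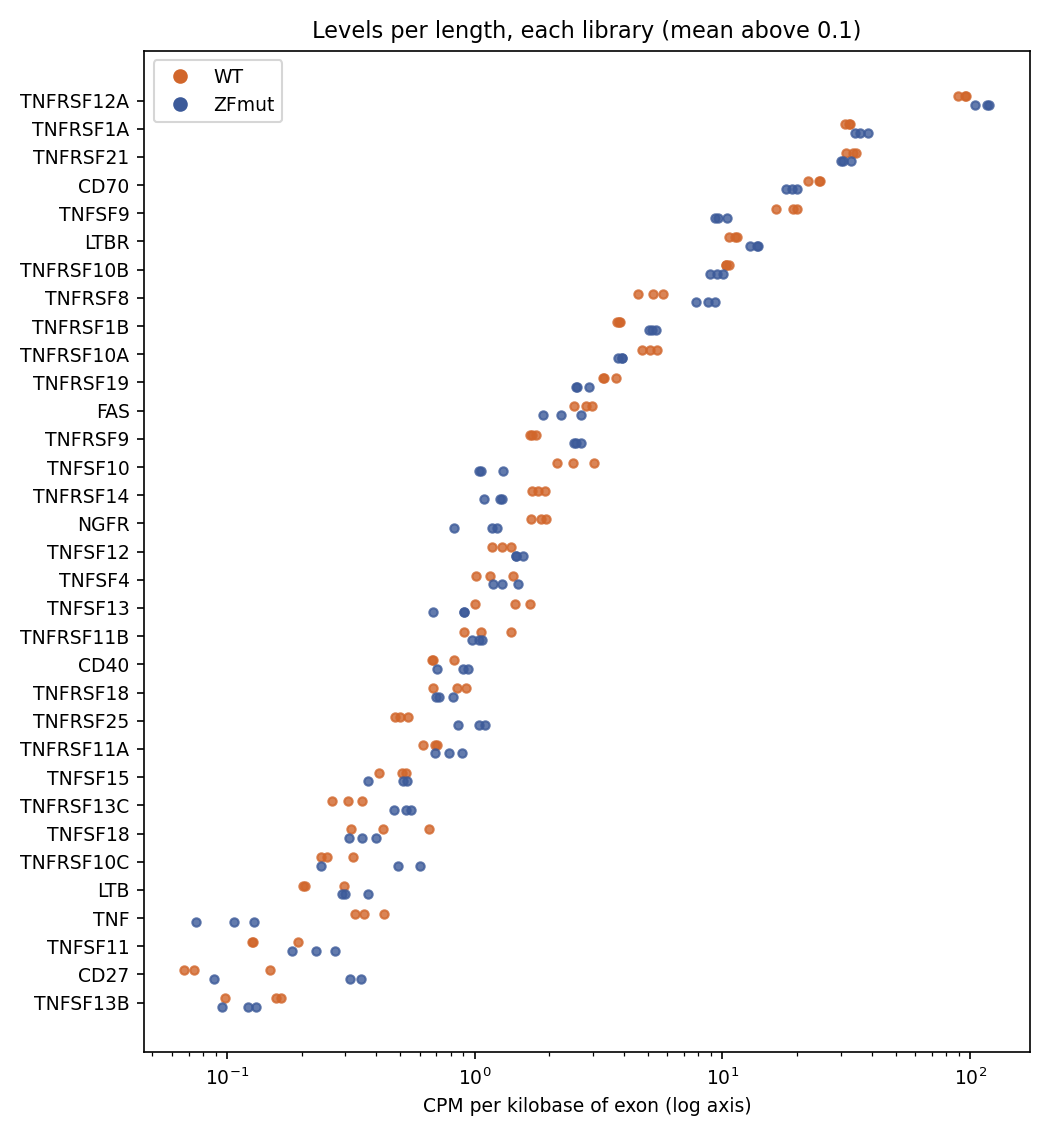
Level of each member in every library in CPM per kilobase of exon (x axis, log scale), for members with a mean above 0.1 over the 6 libraries, WT and ZFmut libraries in separate colours. TNFRSF12A lies apart at the top, and most members lie below 10.

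Reads of the family as a whole were dominated by receptors. Their summed level ran from 645 to 684 CPM in WT libraries and from 699 to 763 CPM in ZFmut libraries, so that the WT libraries were all lower. The summed ligands ran the other way, from 87.2 to 97.2 CPM in WT libraries and from 64.3 to 67.5 CPM in ZFmut libraries. The 4 most read members took 63.5 to 69.1% of the family's reads in a library, so these sums mainly follow abundant genes. TNFRSF12A averaged 173 CPM with WT and 210 CPM with ZFmut, TNFRSF1A 128 and 145, and LTBR 69.8 and 85.0. Of the ligands, CD70 averaged 36.5 CPM with WT and 29.2 CPM with ZFmut, and TNFSF9 30.9 and 16.3. Gene by gene, 9 of the 20 tested receptors had a positive log2 difference and 11 a negative one. For the 12 tested ligands these counts were 7 and 5.

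TNF, the founding ligand and an inducer of inflammation, had the largest relative increase and, of the members that were higher, the lowest level. The WT libraries 1 to 3 held 16, 41 and 19 reads of it (0.553, 0.721 and 0.601 CPM), the ZFmut libraries 4, 3 and 22 (0.178, 0.125 and 0.216 CPM). Every WT library lay above every ZFmut library, as for 24.4% of all tested genes. The log2 difference was 1.72 ± 0.32 (SE, edgeR adjusted p = 0.000805), a 3.30-fold increase. TNF lies on chromosome 6 (31575567 to 31578336, plus strand, GRCh38, as for all gene positions here) between LTA and LTB, the lymphotoxin genes, which share a 10.5 kb span with it. LTA had 1 to 8 reads per library and was not tested. LTB, with 9 to 58 reads, had a log2 difference of -0.46 ± 0.30 that did not pass (edgeR adjusted p = 0.257).

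TNFSF10 encodes TRAIL, a ligand that can trigger apoptosis through the receptors TNFRSF10A and TNFRSF10B (chromosome 3, 172505508 to 172523507, minus strand). It stood at 10.6, 7.46 and 8.67 CPM with WT and at 4.51, 3.63 and 3.68 CPM with ZFmut. The lowest WT library, replicate 2, still lay above the highest ZFmut library. The increase was 2.27-fold (log2 difference 1.18 ± 0.14, edgeR adjusted p = 1.24e-05).

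TNFSF9, the ligand of the T cell costimulator 4-1BB, was the ligand with the smallest p (chromosome 19, 6530999 to 6535928, plus strand). Its levels were 33.2, 27.3 and 32.1 CPM with WT and 15.5, 17.3 and 16.0 CPM with ZFmut. The groups were far apart relative to their spread, and the increase was 1.89-fold (log2 difference 0.92 ± 0.08, edgeR adjusted p = 9.62e-07). CD70 lies next to it on chromosome 19 (6583183 to 6604103, minus strand) and rose less, from 27.5, 29.4 and 30.7 CPM with ZFmut to 33.9, 37.7 and 37.9 CPM with WT. This was a 1.25-fold increase without overlap of the groups (log2 difference 0.32 ± 0.07, edgeR adjusted p = 0.00211). The third gene of this 140 kb stretch, TNFSF14 (LIGHT), had 2 to 18 reads and was not tested.

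TNFSF13 encodes APRIL, a survival factor of B cells and plasma cells. Its levels were 3.80, 2.29 and 3.32 CPM with WT and 2.05, 1.54 and 2.05 CPM with ZFmut, with WT replicate 2 close to the ZFmut libraries. The log2 difference was 0.66 ± 0.19 (edgeR adjusted p = 0.0154). It did not pass without WT replicate 1 (0.49, edgeR adjusted p = 0.0628), without WT replicate 3 (0.60, 0.0544) or without ZFmut replicate 2 (0.56, 0.0611). The readthrough gene TNFSF12-TNFSF13 shares 55.5% of the exonic sequence of TNFSF13. That gene had 0 reads in every library because each of its exonic bases is shared, so the count covers only a part of TNFSF13. TNFSF12, the TWEAK gene directly upstream, was at 2.42 ± 0.209 against 2.82 ± 0.107 CPM and did not pass (log2 difference -0.23 ± 0.14, edgeR adjusted p = 0.205). The same readthrough gene share 29.4% of its exonic sequence on its own strand.

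The remaining tested ligands did not pass by edgeR. The log2 difference was 0.32 for TNFSF18, the GITR ligand (adjusted p = 0.405), 0.17 for the B cell factor TNFSF13B or BAFF (0.725), and -0.01 for TNFSF15 or TL1A (0.953). It was -0.16 for TNFSF4, the OX40 ligand (0.399), and -0.63 for TNFSF11 or RANKL (0.104), with 10 to 76 reads per library. The standard errors of these 5 differences ran from 0.14 to 0.33.

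**Figure D3:**
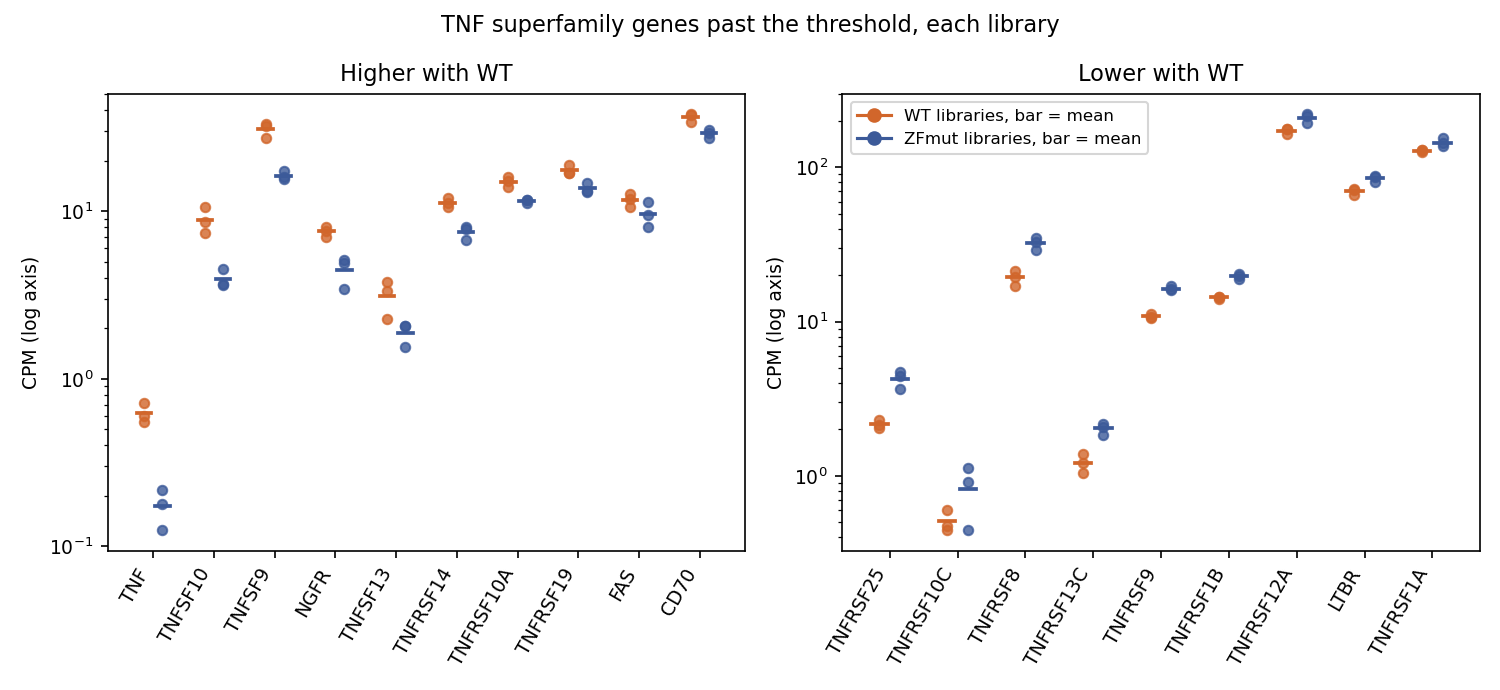
CPM of the 10 members that were higher and the 9 that were lower with WT (y axis, log scale) in each of the 6 libraries, with bars at the group means. Groups overlap for FAS among the higher members and for TNFRSF10C among the lower members.

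Death-domain receptors moved both ways. NGFR, the low-affinity neurotrophin receptor p75NTR (chromosome 17, 49495293 to 49515017, plus strand), was at 8.08, 7.0 and 7.66 CPM with WT and at 3.44, 4.88 and 5.10 CPM with ZFmut. The groups did not overlap, and the increase was 1.63-fold (log2 difference 0.70 ± 0.13, edgeR adjusted p = 0.000694). Genes on the other strand overlap 27.1% of its exonic sequence, and these 2 genes had 0 to 2 reads per library. TNFRSF10A, the TRAIL receptor DR4, was at 16.1, 13.9 and 15.1 CPM with WT and at 11.2, 11.6 and 11.6 CPM with ZFmut, again without overlap. Its log2 difference was 0.38 ± 0.08 (edgeR adjusted p = 0.00166), and 16.6% of its exonic sequence overlaps genes of the other strand. TNFRSF10B, the second signalling TRAIL receptor, DR5, was more abundant at 53.7 ± 0.738 against 48.8 ± 3.08 CPM. Its WT libraries all lay above its ZFmut libraries, but the log2 difference of 0.14 ± 0.06 did not pass (edgeR adjusted p = 0.0779). It passed without ZFmut replicate 2 (0.18, edgeR adjusted p = 0.0428) and after correction for GC content and exon length (0.17, 0.00203).

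FAS, the receptor of the FAS ligand, was at 11.9, 10.7 and 12.6 CPM with WT and at 11.4, 9.51 and 8.01 CPM with ZFmut. ZFmut replicate 1 lay within the WT range. The log2 difference of 0.32 ± 0.12 passed (edgeR adjusted p = 0.0470), but the call ended under 8 of 16 alternatives. Among these were DESeq2 (0.29, adjusted p = 0.0614) and the fits without WT replicate 1 (0.30, edgeR adjusted p = 0.0821), WT replicate 3 (0.26, 0.171), ZFmut replicate 2 (0.32, 0.10) and ZFmut replicate 3 (0.16, 0.356). FASLG, its ligand, had 1 read in ZFmut replicate 3 and 0 in the other libraries.

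TNFRSF25, the death receptor DR3 (chromosome 1, 6460786 to 6466195, minus strand), had the largest decrease of the family. It was at 2.14, 2.04 and 2.31 CPM with WT and at 3.66, 4.46 and 4.71 CPM with ZFmut, every WT library below every ZFmut library, as for 22.8% of all tested genes. The decrease was 2.03-fold (log2 difference -1.02 ± 0.14, edgeR adjusted p = 5.91e-05). Exons of PLEKHG5 and ESPN overlap parts of it, 2.43% of its exonic sequence on its own strand and 8.94% on the other. PLEKHG5, also on the minus strand, was itself lower at -1.14 ± 0.08 (edgeR adjusted p = 5.94e-08) and ESPN higher at 1.07 ± 0.30 (0.0116). Their part in the TNFRSF25 count was not tested.

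TNFRSF1A, which carries most TNF signalling in non-immune cells, was at 126, 129 and 130.4 CPM with WT and at 137, 155 and 143 CPM with ZFmut. The groups did not overlap, with a small log2 difference of -0.17 ± 0.06 (edgeR adjusted p = 0.0230). The call ended after correction for GC content and exon length (-0.07, edgeR adjusted p = 0.144). It also ended when any single WT library, ZFmut replicate 2 or ZFmut replicate 3 was left out, with differences of -0.18 to -0.13 and adjusted p of 0.0561 to 0.0759. TNFRSF21 averaged 119 ± 5.57 CPM with WT and 112 ± 5.13 CPM with ZFmut and did not pass (log2 difference 0.09 ± 0.06, edgeR adjusted p = 0.246), but did after the same correction (0.12, 0.0288).

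Most signalling receptors without a death domain that passed were lower with WT. TNFRSF8, known as CD30 and a marker of activated lymphocytes and some lymphomas (chromosome 1, 12063377 to 12144207, plus strand), was at 17.1, 21.4 and 19.6 CPM with WT and at 29.3, 34.9 and 32.7 CPM with ZFmut. The groups were well separated, and the decrease was 1.66-fold (log2 difference -0.73 ± 0.09, edgeR adjusted p = 1.54e-05). TNFRSF1B, the second TNF receptor, lies within the same 146 kb of chromosome 1 (12167003 to 12209228, plus strand). It was at 14.1, 14.5 and 14.4 CPM with WT and at 19.0, 19.7 and 20.3 CPM with ZFmut, among the tightest groups of the family. Its decrease was 1.37-fold (log2 difference -0.45 ± 0.07, edgeR adjusted p = 0.000132).

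TNFRSF9, the costimulator 4-1BB (chromosome 1, 7915894 to 7943165, minus strand), was lower while its ligand TNFSF9 was higher. Its levels were 10.8, 11.2 and 10.6 CPM with WT and 16.2, 15.9 and 17.0 CPM with ZFmut, without overlap. The decrease was 1.51-fold (log2 difference -0.59 ± 0.07, edgeR adjusted p = 2.17e-05). TNFRSF13C, the BAFF receptor of B cells, was rare, with 33 to 189 reads per library, at 1.38, 1.21 and 1.04 CPM with WT and 2.19, 2.09 and 1.86 CPM with ZFmut. It too separated the groups (log2 difference -0.72 ± 0.18, edgeR adjusted p = 0.00524).

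The 2 most abundant receptors of this class decreased by a small amount. TNFRSF12A was at 164, 177 and 177 CPM with WT and at 194, 221 and 217 CPM with ZFmut (log2 difference -0.28 ± 0.06, edgeR adjusted p = 0.00202). After correction for GC content and exon length its difference shrank to -0.10, still past the threshold (edgeR adjusted p = 0.0325). LTBR was at 66.6, 72.1 and 70.9 CPM with WT and at 80.8, 86.5 and 87.7 CPM with ZFmut (log2 difference -0.28 ± 0.05, edgeR adjusted p = 0.000883), and at -0.17 after that correction. Both separated the groups. LTBR lies beside TNFRSF1A on chromosome 12, and SCNN1A, which lies between them and overlaps 6.72% of the exonic sequence of LTBR on the other strand, was lower at -1.17 ± 0.14 (edgeR adjusted p = 1.67e-05).

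TNFRSF14 and TNFRSF19 were the receptors of this class that rose. TNFRSF14, the herpesvirus entry mediator HVEM (chromosome 1, 2555639 to 2565382, plus strand), was at 11.2, 10.6 and 12.0 CPM with WT and at 6.78, 8.01 and 7.86 CPM with ZFmut, without overlap. The increase was 1.47-fold (log2 difference 0.56 ± 0.09, edgeR adjusted p = 0.000294). Its antisense gene TNFRSF14-AS1 covers 13.4% of its exonic sequence and had a difference of -0.19 that did not pass (edgeR adjusted p = 0.423). TNFRSF19, called TROY and expressed in neural progenitors, was at 16.9, 17.0 and 19.0 CPM with WT and at 14.8, 13.2 and 13.1 CPM with ZFmut (log2 difference 0.37 ± 0.08, edgeR adjusted p = 0.00228).

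CD40, a costimulator of antigen-presenting cells, TNFRSF11A, the RANKL receptor RANK, and TNFRSF18, the receptor GITR, did not pass by edgeR. Their log2 differences were -0.22 (adjusted p = 0.316), -0.24 (0.105) and 0.17 (0.567). TNFRSF11A passed without ZFmut replicate 1 (-0.32, edgeR adjusted p = 0.0272) and after correction for GC content and exon length (-0.27, 0.0399). Of the decoys, osteoprotegerin (TNFRSF11B) averaged 3.18 ± 0.726 CPM with WT and 2.91 ± 0.142 CPM with ZFmut and did not pass (log2 difference 0.16 ± 0.16, edgeR adjusted p = 0.462). TNFRSF10C, a decoy for TRAIL, was at 0.449, 0.475 and 0.601 CPM with WT and 0.446, 0.918 and 1.12 CPM with ZFmut, so that ZFmut replicate 1 lay at the WT level. Its difference of -0.86 ± 0.30 passed (edgeR adjusted p = 0.0379) but not in DESeq2 (-0.79, adjusted p = 0.114). Nor did it pass in 5 of the 6 fits that left out a library, all except that without ZFmut replicate 1, where it ran from -0.97 to -0.44 with edgeR adjusted p of 0.0566 to 0.438. The genes that share 39.3% of its exonic sequence are not in the count files.

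The 11 members that were not tested had few or no reads. TNFRSF6B, the soluble decoy DcR3, had 0 reads in every library, but all of its exonic sequence is shared with other genes, so its reads could not be assigned to it. TNFRSF10D, the other TRAIL decoy, had 5, 6 and 6 reads with WT and 0, 0 and 7 with ZFmut. Per summed read total of each group the WT level was 3.12 times that of ZFmut, and the exact binomial interval (95%, counting error only) ran from 1.23 to 8.89. The same ratio was 0.391 (0.217 to 0.673) for CD27 and 0.453 (0.213 to 0.896) for TNFRSF4, and for the other 6 untested members with reads the interval included 1. CD27, the receptor of CD70, had 3, 12 and 3 reads with WT and 11, 3 and 45 with ZFmut. CD27-AS1 on the other strand overlaps 37.0% of its exonic sequence. This antisense gene, with 137 to 649 reads, was lower at -0.43 ± 0.11 (edgeR adjusted p = 0.00574). TAPBPL, which shares 2.06% of that sequence on the strand of CD27, was higher at 0.36 ± 0.10 (0.011). Their part in the CD27 count was not tested. TNFRSF4, the receptor OX40, had 1 to 23 reads, TNFSF8, the CD30 ligand, 0 to 8, TNFRSF17 (BCMA) 0 to 4 and TNFRSF13B (TACI) 0 to 1. With no low-count filter, CD27 passed at -1.34 (edgeR adjusted p = 0.0277), and none of the other 8 untested members with any reads did. CD27 also reached the read minimum in 4 fits that left out a library. It passed when replicate 2 of WT (-1.92, edgeR adjusted p = 0.0353) or replicate 2 of ZFmut (-1.58, 0.0138) was left out, and did not pass when replicate 1 (-1.19, 0.1002) or replicate 3 of WT (-1.14, 0.128) was.

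Ligands and their receptors are given side by side, as log2 differences, for 12 pairs in which both were tested. These come from a list of textbook pairs that does not hold every pairing. TNFSF9 and TNFRSF9 stood at 0.92 and -0.59, and TNF at 1.72 beside TNFRSF1A at -0.17 and TNFRSF1B at -0.45. TNFSF10, at 1.18, and TNFRSF10A, at 0.38, were both higher, and TNFRSF10B, at 0.14, did not pass. The TRAIL decoy TNFRSF10C, which that list leaves out, was lower at -0.86. For TNFSF13B and TNFSF15 the ligand did not pass, at 0.17 and -0.01, while the receptor was lower, TNFRSF13C at -0.72 and TNFRSF25 at -1.02. The same calls were made for TNFSF12 at -0.23 with TNFRSF12A at -0.28, and for LTB at -0.46 with LTBR at -0.28. Neither gene passed in the pairs TNFSF18 and TNFRSF18 (0.32 and 0.17), TNFSF11 and TNFRSF11A (-0.63 and -0.24), and TNFSF11 and TNFRSF11B (-0.63 and 0.16). Members that are neighbours in the genome, with gaps of at most 500000 bases, formed 9 groups. In 3 of them, TNFRSF8 with TNFRSF1B, TNFRSF1A with LTBR, and TNFSF9 with CD70, at least 2 members passed and these had the same direction. The TRAIL receptor group on chromosome 8 held TNFRSF10A, which was higher, and TNFRSF10C, which was lower.

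The receptor-proximal machinery was taken as a list of 31 adaptors, ubiquitin editors, caspases and kinases. Of the 30 tested, 9 were higher (18.4% of all tested genes were), 8 lower (17.2% of all) and 13 did not pass, with a median log2 difference of 0.09. TNFAIP3, the ubiquitin editor A20 that restrains NF-kB, averaged 39.3 ± 3.16 CPM with WT and 15.8 ± 1.5 CPM with ZFmut (log2 difference 1.31 ± 0.08, edgeR adjusted p = 2.62e-08). CFLAR, the FLIP protein that restrains caspase-8, was higher at 0.51 ± 0.06 (edgeR adjusted p = 1.54e-05). MAP3K14, the kinase NIK of the alternative NF-kB pathway, was lower at -0.39 ± 0.06 (0.000294), and TRAF1, an adaptor induced by NF-kB, was higher at 0.44 ± 0.08 (0.000545). CASP8 and CASP10, initiator caspases, were both higher, and FADD, which recruits them, was lower at -0.24 ± 0.08 (edgeR adjusted p = 0.0239). The lower count was 4 after correction for GC content and exon length, 4 without ZFmut replicate 3, and 5 when WT replicate 1, ZFmut replicate 2 or WT replicate 3 was left out. FADD lost its call in each of these fits.

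A list of 9 genes covered proteases that release ligands and receptors from the membrane or process them, their partners and the inhibitor TIMP3. All 9 were tested, and 5 were higher (against 18.4% of all tested genes), 2 lower (against 17.2%) and 2 did not pass. The proprotein convertase FURIN was higher by 0.42 ± 0.06 (edgeR adjusted p = 6.89e-05), and SPPL2A, an intramembrane protease that cuts TNF and the FAS ligand, by 0.53 ± 0.08 (8.99e-05). TIMP3, an inhibitor of the TNF-converting enzyme, was lower at -0.48 ± 0.06 (edgeR adjusted p = 1.82e-05). ADAM17, which is that enzyme, did not pass at 0.13 ± 0.06 (edgeR adjusted p = 0.138). RHBDF2, the other gene of the list that was lower, stood at -0.30 ± 0.07 (edgeR adjusted p = 0.00298).

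Of 16 textbook TNF-responsive genes, 13 were tested, of which 12 were higher (18.4% of all tested genes were), 0 lower (17.2% of all) and 1, TNFAIP2, did not pass, with a median of 0.63. No gene of the list was lower at an unadjusted edgeR p under 0.05, and DESeq2 and limma-voom called 0 lower too. Over the 16 alternatives 9 to 12 were higher and 0 lower, with 9 under the filter of 5 CPM, which tested fewer genes. IRF1 and SOD2 each lost the call in 4 alternatives and ICAM1 in 1. Besides TNFAIP3, the chemokine CCL2 was 2.75-fold higher at 17.8 ± 2.88 against 6.20 ± 0.811 CPM (edgeR adjusted p = 5.78e-07), and TNFAIP8, a regulator of cell death, 1.64-fold higher (2.97e-06). CXCL8, the neutrophil attractant interleukin 8, was 2.64-fold higher at 2.10 ± 0.262 against 0.733 ± 0.121 CPM (edgeR adjusted p = 6.38e-05). The vascular adhesion gene SELE, IL6 and TNFAIP6 had too few reads to be tested. This list shares TNFAIP3, BIRC3 and TRAF1 with the list of receptor-proximal genes, and it was chosen with earlier results on inflammatory genes of these libraries known, so it is not independent evidence of its direction. In the plot of gene groups, the TNF-responsive genes have the highest median.

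**Figure D4:**
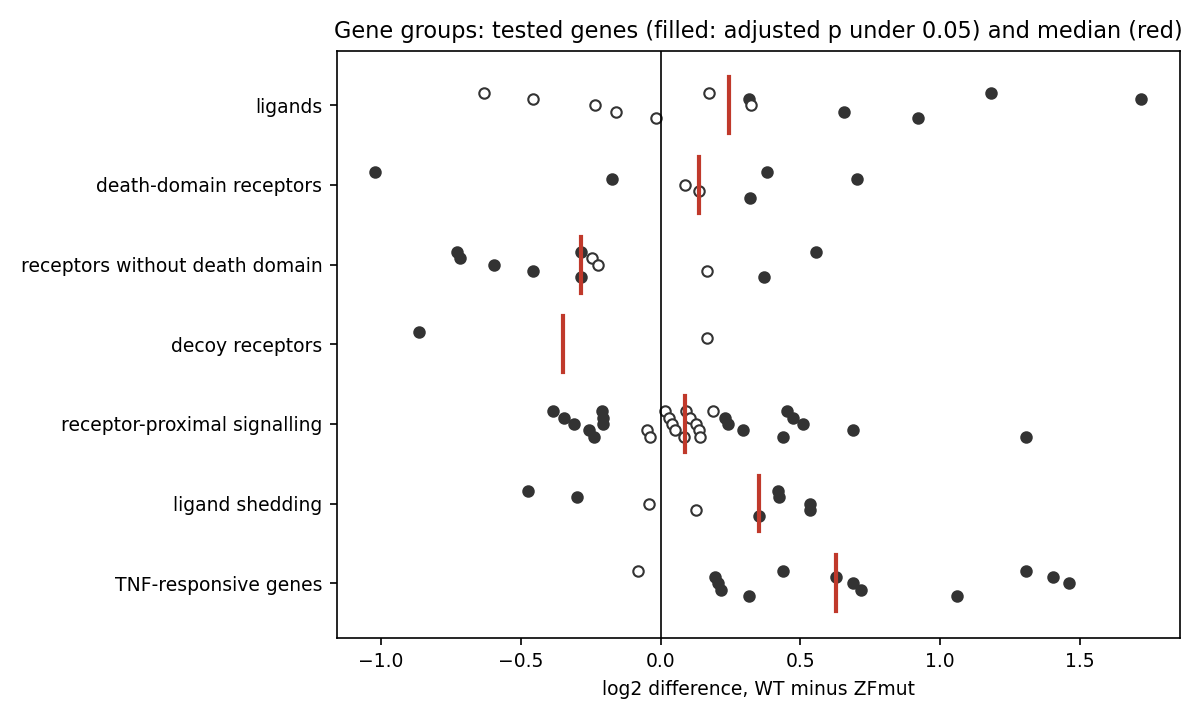
Log2 difference between WT and ZFmut (x axis) of each tested gene in 7 gene groups, filled where the adjusted p was under 0.05, with a red bar at the group's median. TNF-responsive genes have a median of 0.63, and receptors without a death domain one of -0.28.

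Members of the superfamily that its naming rule leaves out were few. RELT, a receptor related to TNFRSF19, was higher at 0.26 ± 0.08 (edgeR adjusted p = 0.0240), and EDA, the ectodysplasin ligand, was lower at -0.39 ± 0.14 (0.0426). RELT lost its call after thinning to equal depth and without WT replicate 2, WT replicate 3, ZFmut replicate 1 or ZFmut replicate 2. EDA lost its call in DESeq2, after correction for GC content and exon length, and without WT replicate 1, WT replicate 3, ZFmut replicate 2 or ZFmut replicate 3. The CD40 ligand CD40LG and the receptors EDAR and EDA2R had 0 to 14 reads per library and were not tested.

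Of the 19 called members of the superfamily, 15 kept their call under every one of the 16 alternative settings that tested them; the exceptions were FAS, TNFSF13, TNFRSF1A and TNFRSF10C. In the plot of alternative settings these 4 genes carry the crosses that mark a lost call, and no called member crossed 0.

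**Figure D5:**
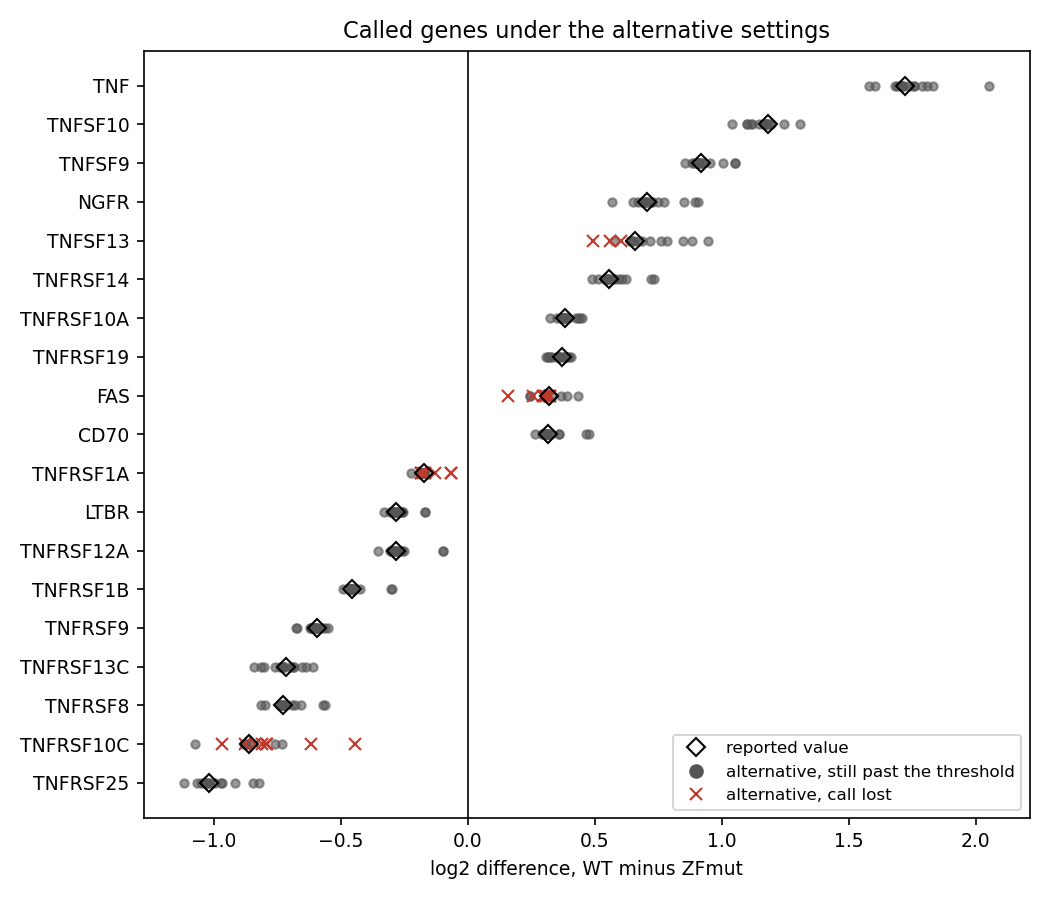
Log2 difference between WT and ZFmut (x axis) of the 19 called members as reported (diamonds) and under each alternative setting (circles where the call held, crosses where it was lost). Crosses occur for TNFSF13, FAS, TNFRSF1A and TNFRSF10C.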

How the data were processed

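The files hold raw read counts per gene as the authors deposited them, whole numbers without normalisation, 1 file for each of the 6 libraries. The tools named, per the submitters' processing notes and without their order, are DESeq2, HTSeq, TopHat2 2.0.9 and cutadapt, and the build is GRCh38. For annotation release and strand setting, "not given in the sources used here" applies, and the library kit named in the labels' protocols does not mark strand. The 5 summary lines of each file, which name no gene, were left out; they held 7.71 to 8.08% (reads that match several genes), 5.04 to 6.56% (outside genes) and 16.1 to 19.4% (several alignments) of the total. Such reads are missing from genes with overlaps or close copies. By GENCODE release 29, 10 members share more than 10% of their exonic sequence on a strand with other genes. Among them is TNFRSF10C, whose overlapping genes are not in the count files. Symbols, positions and exon lengths came from GENCODE release 29, which matched 94.1% of the identifiers.

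WT and ZFmut were compared over all genes in R 4.3.3 with edgeR 4.0.16 (TMM scaling, filterByExpr, two-sided quasi-likelihood F test, no covariates) and Benjamini-Hochberg adjustment over 18683 genes, with a threshold of 0.05. SE is the log2 difference divided by the root of F. Alternatives were median-of-ratios and upper-quartile scaling, DESeq2 1.42.0, limma-voom (limma 3.58.1), no low-count filter, a filter of 5 CPM in 3 libraries, the replicate block, loess offsets for GC content and exon length (span 0.5) with and without the block, thinning to 22236214 reads, and each library left out. The test was tried on simulated counts first. Every member is named; from other lists up to 4 called genes with the smallest p are named, and the others mentioned were chosen after their values were seen; 1 gene that this rule names is not reported here. The members and lists were chosen with earlier results of these data known.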

Additional observations from a re-analysis of the deposited data

How the results depend on the processing

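Over the 16 alternatives the superfamily had 7 to 12 higher and 6 to 10 lower members, and 7 and 6 with the filter of 5 CPM, which tested fewer genes. Leaving out single libraries gave 8 to 10 higher and 7 to 10 lower. The superfamily's median log2 difference was 0.117 with that filter and ran from -0.037 to 0.1025 when single libraries were left out, with -0.0215 without WT replicate 1, -0.0277 without WT replicate 3 and -0.037 without ZFmut replicate 2; the cause was not tested. Of the receptor-proximal genes, 4 were lower with GC and length offsets, with or without the block, and 4 to 8 when single libraries were left out. Of the relatives outside the naming rule, 1 was called with DESeq2, with the filter of 5 CPM, with GC and length offsets and after thinning, and 0 to 1 when single libraries were left out. ZBTB7B stayed higher throughout, by 0.61 to 0.82 on the log2 scale. No called member changed direction. Replicate numbers do not pair the libraries by any label: deviations of same-numbered libraries correlated at 0.164, 0.077 and 0.0635, each the highest for its library, which is only a hint. With the replicate block 12 members were higher and 9 lower, TNFRSF10B (edgeR adjusted p = 0.0111) and TNFRSF21 (0.0443) being added, and 4466 and 4226 of all tested genes were called. After thinning to the smallest total TNF kept its call (1.68, edgeR adjusted p = 0.00478) and TNFRSF10C lost it (-0.84, 0.0979). The low-count filter decides which members were tested.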
